A study of Mus musculus with 6 samples.

Results

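The ARID family was followed through the trunks of Arid3b-null mouse embryos. Its members are the genes Arid1a, Arid1b, Arid2, Arid3a, Arid3b, Arid3c, Arid4a, Arid4b, Arid5a and Arid5b. They were chosen by name, with earlier results of these data known, and every probe on the array whose RefSeq accession belongs to one of them was kept. This gave 20 probes for all 10 genes, out of 39429 non-control probes on the array. The comparison addresses whether a paralogue, Arid3a and Arid3c above all, was higher where Arid3b was missing.

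The 2 groups were wild-type trunks and Arid3b-null trunks, dissected at embryonic day 9.5, with 3 arrays in each group and RNA pooled from 4 embryos on each array. The piece of the body taken ran from the otic vesicle back through the anterior somites, with the forelimbs. The sources used here do not name the null allele, the strain or the sex of the embryos, and the labels place no tissue limit on the loss of Arid3b. The spread within a group is the spread between pools, and in whole trunks fewer cells of a type and less RNA per cell cannot be told apart.

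ARID proteins share the AT-rich interaction domain, a DNA-binding fold. In the ARID3 proteins it prefers AT-rich sequence, and Arid3a and Arid3b are close paralogues that can bind each other. In Arid1a, Arid1b and Arid2 the domain sits in a large subunit of a SWI/SNF remodelling complex, which moves nucleosomes with the energy of ATP. Arid4a and Arid4b bring the retinoblastoma protein together with the Sin3 histone deacetylase complex, and Arid5b recruits the histone demethylase Phf2, while Arid5a is known for binding and stabilising RNA. A related JARID branch, Jarid2 and the Kdm5 demethylases, carries the same domain.

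Promoter sequence was at hand for 7 of the members, from RefSeq on build GRCm38.p6. The stretch upstream of a start of Arid3b, the gene removed in these embryos, and that of Arid3c, its close relative, are shown. These are the ARID3 genes with a sequence at hand. Each run holds the 250 bases before the start, 5′ to 3′ on the minus strand, at chr9:57836780-57837029 for Arid3b and chr4:41731143-41731392 for Arid3c. Capitals mark CG dinucleotides, 23 in the Arid3b run and 23 in the Arid3c run.
Arid3b: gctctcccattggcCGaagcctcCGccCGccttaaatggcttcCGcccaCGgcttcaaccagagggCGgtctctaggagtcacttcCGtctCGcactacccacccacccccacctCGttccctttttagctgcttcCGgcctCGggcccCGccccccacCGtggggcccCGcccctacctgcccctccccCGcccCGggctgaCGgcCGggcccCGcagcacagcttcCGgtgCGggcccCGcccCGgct
Arid3c: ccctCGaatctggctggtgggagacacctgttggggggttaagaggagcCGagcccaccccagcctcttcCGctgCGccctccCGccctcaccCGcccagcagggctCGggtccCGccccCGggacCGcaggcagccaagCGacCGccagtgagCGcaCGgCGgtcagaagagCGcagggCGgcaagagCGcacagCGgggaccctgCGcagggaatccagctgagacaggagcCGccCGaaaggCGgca
Both are rich in G and C. Windows of 300 bases add the first 50 bases of the transcript. In the Arid3b window shown 72.3% of the bases were G or C, and in the Arid3c window 72.7%. The median of all 32851 windows was 52.7%. Another start of Arid3b, not shown, had a window with 65.3%. The letters ATTAA, an AT-rich core of the kind ARID3 proteins prefer, were searched on both strands and stood in 0 of 9 member windows and in 27.1% of all windows. This says only that those letters are not in these windows.

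Signals are on a log2 scale on which 0 is the 75th percentile of an array's non-control spots, and a change is the null mean less the wild-type mean. A probe entered the test when at least 1 group had all 3 of its arrays marked well above background for it. This held for 17 of the 20 member probes, which cover 8 of the 10 genes. Arid3c and Arid5b, with 1 probe each, and 1 of the 3 Arid2 probes did not enter it. Signals of different probes are not comparable as levels, so a brighter probe is not read as more RNA. Within a gene, changes were compared between probes.

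Of the 17 tested member probes, 3 were called lower and 0 higher (limma, Benjamini-Hochberg adjustment over all 24423 tested probes, threshold 0.05). All 3 are probes of Arid3b. Over the whole array 12.8% of tested probes were called lower and 13.5% higher. None of the 14 tested paralogue probes was called in either direction, at a background of 26.3% called. They had a median change of -0.01, beside -0.04 over all tested probes, with 7 changes above 0 and 7 below. Their changes ran from -0.55 to 0.31. For 5 of the 17 member probes (29.4%) the arrays of one group all lay to one side of the other's, as they did for 46.1% of all tested probes. The 5 were the Arid3b probes, 1 probe of Arid3a and 1 of Arid4a.

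**Figure D1:**
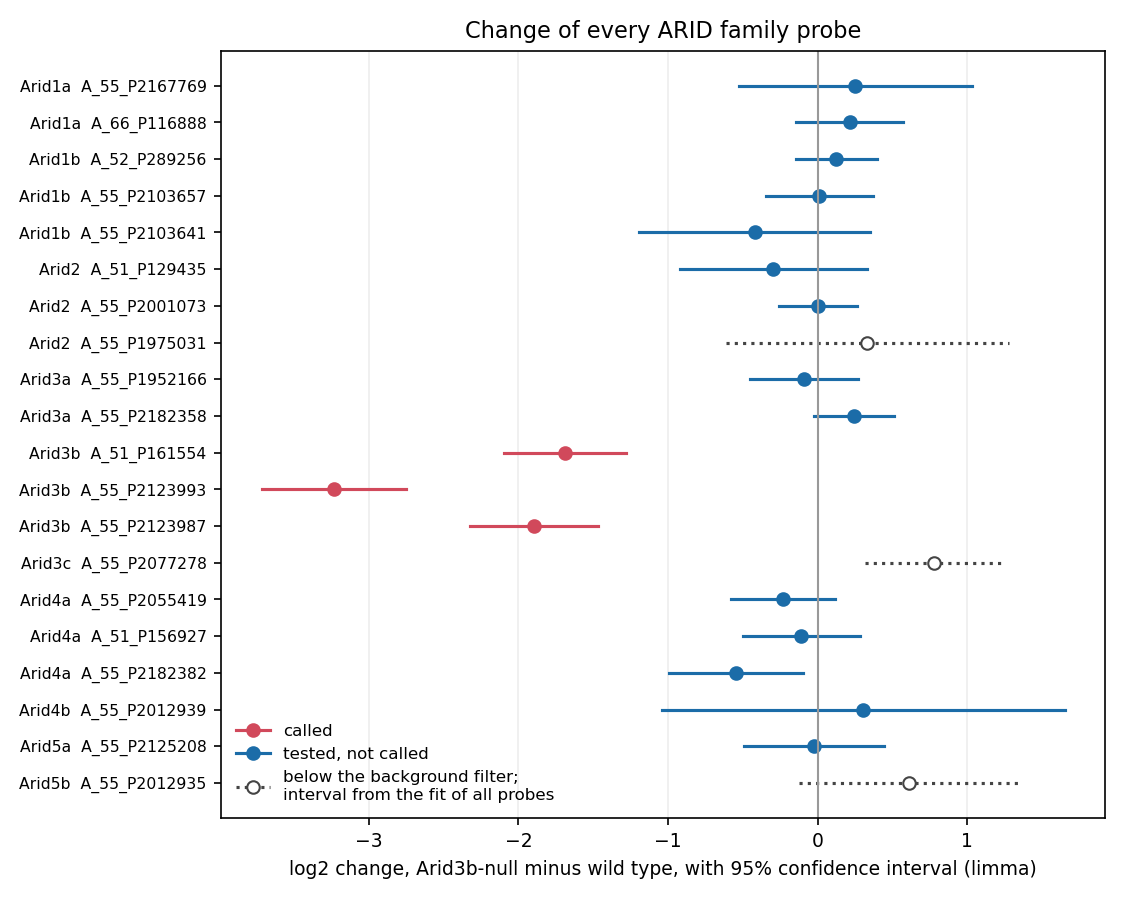
Log2 change of each of the 20 ARID family probes, Arid3b-null minus wild type, with its 95% confidence interval from limma. The 3 Arid3b probes lie at -1.69, -3.23 and -1.90 with intervals clear of 0, while the filled blue points of the 14 tested paralogue probes lie between -0.55 and 0.31; open points are the 3 probes below the background filter.

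Arid3b, the gene lost in these embryos, was lower on each of its 3 probes. Probe A_51_P161554 read 2.18, 2.57 and 1.97 in wild type and 0.54, 0.65 and 0.46 in Arid3b-null. All null arrays lay below all wild-type arrays. In scanner units this is a fall from between 2391 and 3815 to between 911 and 968, so that the null trunks still gave a signal far above background on this probe. The fall was 3.22-fold, or -1.69 ± 0.17 on the log2 scale (SE, limma adjusted p = 0.0015).

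The other Arid3b probes were dim and reached the background in the null trunks. Probe A_55_P2123993 read -3.24, -2.82 and -3.20 in wild type and -6.30, -6.00 and -6.67 in Arid3b-null, a change of -3.23 ± 0.20 (SE, limma adjusted p = 0.000379). Probe A_55_P2123987 read -4.83, -4.53 and -4.57 in wild type and -6.45, -6.28 and -6.88 in Arid3b-null, a change of -1.90 ± 0.18 (SE, limma adjusted p = 0.0013). In scanner units the null arrays gave 6.59 to 9.65 on the first of these and 5.68 to 7.93 on the second. For both, 2 of the 3 null arrays were marked well above background. With a normexp correction against each array's median background the changes were -1.60, -1.05 and -0.36. The last of them did not pass (limma adjusted p = 0.0629). Normexp settings here add 50 units to each signal, which by itself shrinks the changes of dim probes.

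The size of the fall was set side by side between probes of Arid3b. The signal of A_51_P161554 over that of A_55_P2123993 averaged 5.33 (SD 0.13) over 3 wild-type arrays and 6.87 (SD 0.24) over 3 null arrays, a difference in change of 1.55 (two-sided exact permutation p = 0.1, the smallest that 3 against 3 arrays allow, and 0.24 adjusted over the 12 probe pairs compared within a gene). The changes of A_51_P161554 and A_55_P2123987 differed by 0.21 (two-sided exact permutation p = 0.6). Both A_55_P2123993 and A_55_P2123987 reached the background in the null trunks, so their falls can read smaller than they were. Neither the likeness nor the difference in size between probes is therefore read as a result. No pair could pass with 3 against 3 arrays. In the normexp setting the largest fall was on A_51_P161554, but the 50 units added there shrink the falls of dim probes. The order of the falls therefore cannot be read from that setting. The sources used here do not say where on the transcript each probe lies, or which part of the gene the null allele removes.

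Arid3a, a close paralogue also known as Bright, was well above background on every array on both of its probes. Probe A_55_P1952166 read 3.39, 3.51 and 3.55 in wild type and 3.56, 3.52 and 3.09 in Arid3b-null. The groups overlapped, with null replicate 3 the lowest of the 6 arrays. The change was -0.09 ± 0.15 (SE, limma adjusted p = 0.693), and its 95% interval ends at 1.21-fold above wild type. The sign of this small change turned to 0.01 after quantile normalization.

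The second Arid3a probe lay slightly higher in the null trunks without passing the test. Probe A_55_P2182358 read 1.23, 1.43 and 1.45 in wild type and 1.59, 1.70 and 1.55 in Arid3b-null. The groups did not overlap, and the change within each slide was 0.36, 0.27 and 0.10. The change was 0.24 ± 0.11 (SE, limma adjusted p = 0.159), or 1.18-fold, with a 95% interval from 0.982-fold to 1.43-fold. Over the alternatives that leave out 1 array the adjusted p ran from 0.172 to 0.402. With all arrays and the percentile scaling, the upper 95% limits of the Arid3a probes were thus 1.21-fold and 1.43-fold. Upper limits under other scalings are not given here. The change of A_55_P2182358 was 0.29 after quantile normalization and 0.24 with normexp against each array's median background. With normexp on each spot's background it was 0.45, and that of A_55_P1952166 was 0.19. The limits refer to pooled whole trunks, and a larger rise confined to some cells was not tested.

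Arid3c, the third gene of the group, stood at the edge of detection. Its probe A_55_P2077278 read -7.07, -7.33 and -7.66 in wild type and -6.67, -6.61 and -6.45 in Arid3b-null. The null arrays all lay above the wild-type arrays, but 0 of 3 wild-type arrays and 1 of 3 null arrays marked the probe well above background. In scanner units the readings were 3.02 to 6.26 in wild type and 6.15 to 7.66 in Arid3b-null. Its null mean of -6.58 lies below -6.30, the mean of the lowest signals counted as well above background on the wild-type arrays, so no fold is given. In a fit of all 39429 probes without a background filter, where 3.98% of probes were called higher, 3.05% lower and 7.03% in all, the readings differed by 0.78, largely below the limit of detection, and did not pass (limma adjusted p = 0.0671). In the deposited value table it was 1.03 (limma adjusted p = 0.063), with normexp against each array's median background it was 0.11, and with normexp on each spot's background it was -0.97. Its direction thus turned with normexp on each spot's background, and the 0.11 includes the offset of 50 units.

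**Figure D2:**
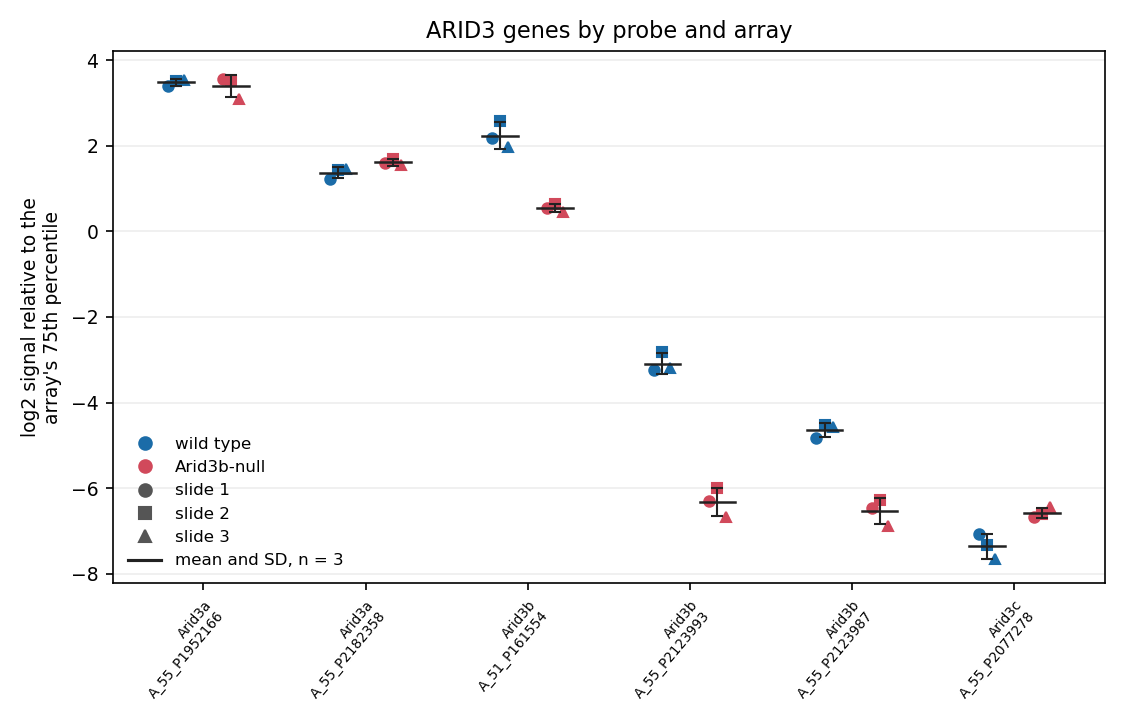
Log2 signal relative to the array's 75th percentile for each probe of Arid3a, Arid3b and Arid3c on each of the 6 arrays, by group (colour) and slide (shape), with the mean and SD of 3 arrays. The null arrays lie below wild type on all 3 Arid3b probes, within 0.5 of wild type on both Arid3a probes, and above wild type for Arid3c at readings of -6.67 to -6.45, close to background.

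The genes whose signal ran most like that of each ARID3 gene over the 6 arrays are given as a description. For Arid3b (A_51_P161554) they were Psmc1, a proteasome ATPase subunit, with Pearson r = 0.9996, Prkx, a protein kinase, with r = 0.9982 and Ltv1, a factor of small ribosomal subunit assembly, with r = 0.9982. In all 5.53% of the compared probes had r over 0.95 with it. For Arid3a (A_55_P1952166) they were Olfr220, Dnajb9 and Avpi1, with r = 0.988, 0.985 and 0.985, and 0.124% of probes had r over 0.95. For Arid3c they were Zfand1, Nop53 and Bik, with r = 0.998, 0.997 and 0.996, and 2.86% of probes had r over 0.95 with this probe, which was above background on 1 array. The 6 points share the group difference and the slides.

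Arid1a and Arid1b are the alternative ARID subunits of the BAF complex, and neither was called. Arid1a probe A_66_P116888 read 1.59, 1.77 and 1.38 in wild type and 1.60, 1.83 and 1.95 in Arid3b-null, a change of 0.21 ± 0.15 (SE, limma adjusted p = 0.33). The groups overlapped. The brighter Arid1a probe, A_55_P2167769, read 2.62, 2.66 and 1.52 in wild type and 2.47, 2.82 and 2.27 in Arid3b-null. Wild-type replicate 3 stood apart from its group, and the change of 0.25 ± 0.33 (SE) was -0.12 without that array.

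Arid1b was measured by 3 probes of very different brightness. A_52_P289256 read 1.58, 1.73 and 1.69 in wild type and 1.76, 1.93 and 1.69 in Arid3b-null, a change of 0.12 ± 0.11 (SE, limma adjusted p = 0.456) with an upper 95% limit of 1.32-fold. A_55_P2103657 changed by 0.01 ± 0.15 (SE, limma adjusted p = 0.962). The dimmest, A_55_P2103641, read -5.12, -4.83 and -4.58 in wild type and -5.01, -4.78 and -6.01 in Arid3b-null, so that its change of -0.42 ± 0.33 (SE) came largely from null replicate 3 and was -0.05 without that array. It was well above background on 2 of the 3 null arrays.

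Arid2, the ARID subunit of the PBAF form of the complex, gave one of the tightest estimates of the family. Probe A_55_P2001073 read -0.19, -0.14 and -0.05 in wild type and -0.17, 0.00 and -0.19 in Arid3b-null. Its change was 0.00 ± 0.11 (SE, limma adjusted p = 0.984), with a 95% interval from -0.26 to 0.26 on the log2 scale. A_51_P129435 spread more, from -0.15 to 0.71 in wild type and from -0.35 to 0.32 in Arid3b-null, with a change of -0.30 ± 0.26 (SE, limma adjusted p = 0.443). The third probe, A_55_P1975031, was marked well above background on 0 of 6 arrays.

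Arid4a had 3 probes, all with a negative change and none called. A_55_P2055419 changed by -0.23 ± 0.15 (SE, limma adjusted p = 0.29) and A_51_P156927 by -0.11 ± 0.16 (SE, limma adjusted p = 0.661). The dim probe A_55_P2182382 read -5.61, -5.08 and -5.52 in wild type and -5.86, -5.78 and -6.21 in Arid3b-null. Its groups did not overlap, and its change of -0.55 ± 0.19 (SE, limma adjusted p = 0.074) was the largest among the tested paralogue probes. With the slide as a block the adjusted p was 0.0516. With normexp against each array's median background and its offset of 50 units the change was -0.02. The probe was well above background on 2 of the 3 null arrays.

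Arid4b, its paralogue in the Sin3 complex, spread widely within both groups, with its lowest reading of each group on slide 2 and its highest on slide 3. Its probe A_55_P2012939 read -2.91 and -2.80 on slide 1, -4.24 and -3.33 on slide 2, and -2.04 and -2.15 on slide 3, wild type first. The change was 0.31 ± 0.57 (SE, limma adjusted p = 0.722), an error above that of 98.6% of tested probes, and the 95% interval ran from 0.487-fold to 3.14-fold. With the slide as a block the SE was 0.22 (adjusted p = 0.352). Without wild-type replicate 2 the change was -0.28.

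Arid5a read -1.61, -1.42 and -1.63 in wild type and -1.60, -1.19 and -1.94 in Arid3b-null on probe A_55_P2125208. The groups overlapped and the change was -0.02 ± 0.20 (SE, limma adjusted p = 0.938), with an upper 95% limit of 1.36-fold. The single Arid5b probe, A_55_P2012935, was marked well above background on 0 of 6 arrays, with readings of 2.72 to 5.21 scanner units, so Arid5b was not measured here. Probes that carry other than RefSeq accessions were not matched to members.

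**Figure D3:**
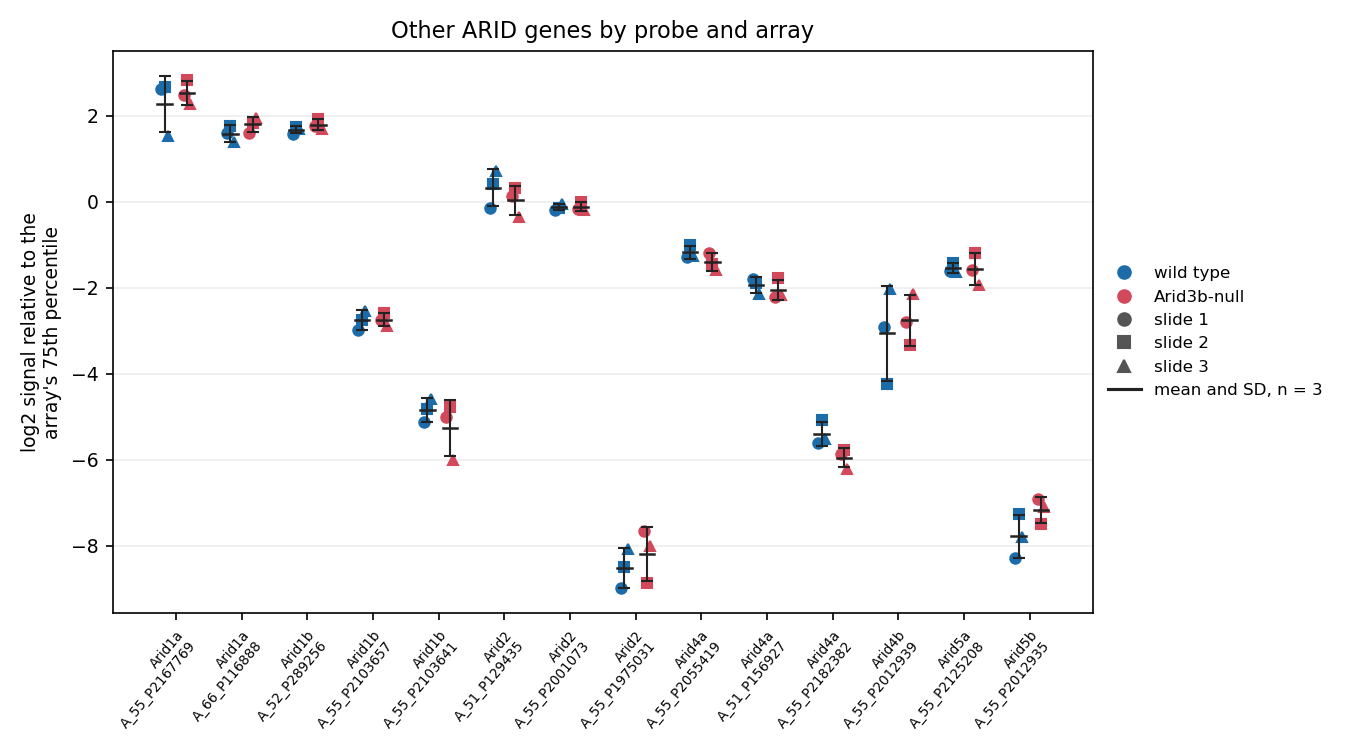
Log2 signal relative to the array's 75th percentile for each probe of the other ARID genes on each of the 6 arrays, by group (colour) and slide (shape), with the mean and SD of 3 arrays. The groups overlap for every probe but Arid4a A_55_P2182382, and the Arid4b points order by slide, from -4.24 and -3.33 on slide 2 to -2.04 and -2.15 on slide 3.

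Across the tested paralogue probes the typical error was that of the array. The median SE was 0.158, beside 0.147 over all tested probes. Leaving aside Arid4b and the brighter Arid1a probe, whose upper limits were 3.14-fold and 2.04-fold, no upper 95% limit of a tested paralogue probe exceeded 1.49-fold. Many member probes read lowest among the null arrays on the same array. Null replicate 3 was the lowest of the null arrays for 14 of the 17 tested member probes, where 44.7% of all tested probes were lowest on it. On its slide, 9 of the 14 tested paralogue changes lay below those of both other slides, beside 45.2% of all tested probes. Null replicate 3 also had the fewest non-control spots well above background, 26491 beside 27220 to 29609 on the other arrays. Its part in the members' values was not tested beyond leaving it out, after which 8 of 14 paralogue changes were above 0 and none was called.

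The related JARID genes, which carry the ARID domain and are not among the 10 members, were read in the same fit. Of 5 measured, 2 rose and 0 fell, with a median change of 0.67, which is the value of Jarid2. The 5 include the Y-linked Kdm5d, taken up below, at 0.85. Over all genes, each taken by its brightest tested probe, 14.9% rose, 14.1% fell and the median was -0.02. Kdm5b, a histone H3 lysine demethylase, read 3.47, 3.71 and 3.70 in wild type and 4.29, 4.59 and 4.18 in Arid3b-null, a rise of 1.65-fold (limma adjusted p = 0.014). Jarid2, a subunit of a form of the polycomb repressive complex, read 0.79, 0.86 and 0.95 in wild type and 1.38, 1.81 and 1.43 in Arid3b-null, a rise of 1.59-fold (limma adjusted p = 0.0174). The groups did not overlap for either gene. Kdm5b did not pass without wild-type replicate 1 (adjusted p = 0.0532), and Jarid2 did not pass without wild-type replicate 1 or 2 (adjusted p = 0.0635 and 0.051).

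The Y-linked JARID gene Kdm5d averaged -5.03 (SD 0.51) over 3 wild-type arrays and -4.17 (SD 0.32) over 3 null arrays and did not pass (limma adjusted p = 0.068). Another Y-linked gene, Eif2s3y, was 1.90-fold higher in the null pools (limma adjusted p = 0.0288), the 1 called of 4 tested X and Y transcripts. Ddx3y, also Y-linked, was at 0.42 (limma adjusted p = 0.3), and Xist, expressed from the inactive X chromosome, changed by -0.21 ± 0.30 (SE, limma adjusted p = 0.649). The sex of the pooled embryos can differ between groups, and its part in Kdm5d was not tested.

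Subunits of the BAF and PBAF complexes, the partners of Arid1a, Arid1b and Arid2, went both ways. Of 26 tested, 3 rose, 6 fell and 17 did not pass, with a median change of -0.18, where 14.9% of all genes rose and 14.1% fell. With the slide as a block Smarca2, Smarcc2 and Smarcd3 of these did not pass (adjusted p = 0.0544, 0.074 and 0.0786). Actl6b, the actin-related subunit of the neuronal BAF complex, was not above background on any array. Bcl11a, a zinc finger transcription factor that joins the complex in neurons and blood cells, read -1.39, -1.92 and -1.61 in wild type and -2.93, -2.69 and -2.91 in Arid3b-null. It fell 2.30-fold (limma adjusted p = 0.00367). Dpf1, a subunit of the neuronal complex, fell 1.54-fold (limma adjusted p = 0.0182), Bcl7a fell 1.44-fold (limma adjusted p = 0.0149), and Bicral, a subunit of the non-canonical complex, rose 1.63-fold (limma adjusted p = 0.0183).

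Changes were positive for 2 other subunits linked to neurons, and negative for Smarcd3 and Bcl11b of the same list. Dpf3, a relative of Dpf1, rose 1.34-fold (limma adjusted p = 0.0335) and passed in 5 of 15 alternatives. Ss18l1 was at 0.38 and did not pass (limma adjusted p = 0.0678). Smarcd3 was at -0.46 (limma adjusted p = 0.049) and passed in 2 of 15 alternatives. Bcl11b, a relative of Bcl11a, was at -0.41 and did not pass (limma adjusted p = 0.167). All 9 markers of early neurons were called lower, beside 14.1% of all genes, with a median change of -2.67. Elavl3, a neuronal RNA-binding protein, fell 6.97-fold and Nefl, the light neurofilament, 4.12-fold (limma adjusted p = 0.000379 each). The summed signal of the list, relative to the 75th percentile, was 10.5 to 12.7 on the wild-type arrays and 1.95 to 2.40 on the null arrays. Their part in the values of the BAF subunits was not tested.

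The Sin3, histone deacetylase and retinoblastoma partners of Arid4a and Arid4b mostly did not pass. Of 18 tested, 0 rose, 2 fell and 16 did not pass, with a median change of -0.04, where 28.9% of all genes were called and 14.1% fell. The 2 were Brms1, which fell 1.58-fold (limma adjusted p = 0.0157), and its relative Brms1l, which fell 1.31-fold (limma adjusted p = 0.0326). Both encode subunits of the Sin3 complex. Of 7 tested genes linked to Arid3a, Arid5a or Arid5b, Lin28a alone was called. Lin28a, an RNA-binding protein that blocks maturation of let-7 microRNAs, read 3.81, 4.20 and 3.84 in wild type and between 4.46 and 4.6 in Arid3b-null, a rise of 0.59 on the log2 scale (limma adjusted p = 0.0238). Il6 was not above background on any array.

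**Figure D4:**
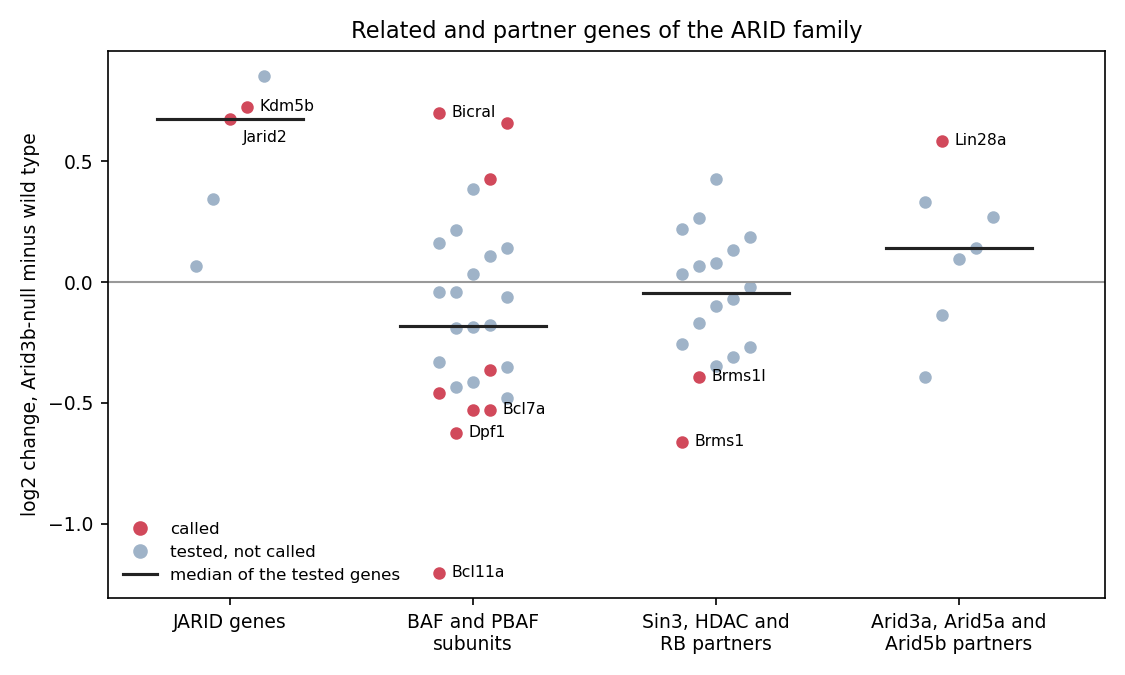
Log2 change, Arid3b-null minus wild type, of each tested gene of the 4 related and partner lists, by its brightest tested probe, with the median of each list as a bar. Red points are called; Bcl11a lies lowest at -1.20, and Kdm5b and Jarid2 lie at 0.73 and 0.67.

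Most partner calls were lost when some single array was left out. Over the 4 lists 14 of 56 tested genes were called (25%), beside 28.9% of all genes, and 1 of the 14, Bcl11a, kept its call whichever array was left out. Without a filter on dim probes Bcl11a was again the 1 partner gene that passed (adjusted p = 0.0213). Bcl7a did not pass without wild-type replicate 1 or null replicate 1 (adjusted p = 0.0559 and 0.0505), Dpf1 without wild-type replicate 1 or 2 (0.058 and 0.0579) and Brms1 without wild-type replicate 1 or null replicate 2 (0.059 and 0.0517). Bicral did not pass without wild-type replicate 1 or 2 or null replicate 2 or 3 (0.0654, 0.0574, 0.0549 and 0.0592). Lin28a did not pass without any 1 array other than wild-type replicate 2 (0.0533 to 0.0832). Brms1l did not pass without any 1 array (0.0545 to 0.116) or with the slide as a block (0.0595).

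Most markers of trunk and forelimb were detected. Of 8 markers of trunk and forelimb, 7 were well above background on every array, among them the forelimb factor Tbx5 at 0.91 (SD 0.14, n = 3) in wild type, with a change of 0.29 (limma adjusted p = 0.145). Of the 7 tested, 1 was called higher, the limb growth factor Fgf10, by 1.79-fold (limma adjusted p = 0.00371), and 0 lower. Myf5, an early muscle factor, was not above background on any array. Over all genes 14.9% were called higher and 14.1% lower. Of 7 markers of primitive erythroid cells 2 were called lower, Klf1 by 2.74-fold and Gata1 by 1.76-fold. Of 6 markers of surface epithelium 4 were called higher. Of 5 markers of yolk sac and hepatic endoderm 3 were called lower, and 0 of 5 markers of endothelium were called. Of the hindlimb markers Pitx1 was tested and not called (limma adjusted p = 0.399). It was well above background on every array, at -0.37 (SD 0.17, n = 3) in wild type. Detection alone therefore does not set the trunk apart from other regions. The part of these cell types in the values of the ARID genes was not tested.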

How the data were processed

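RNA of 6 pools was read on Agilent arrays with a single dye. The authors' scanner files come, per the file headers, from Agilent Feature Extraction 10.7.3.1 (protocol GE1_107_Sep09, design 026655). The deposited intensity values used were the processed signal, already background-subtracted by the scanner software, and the medians of spot and background. The series also has a deposited table of log2 values; the sources used here do not give their normalization. Its columns have medians of 6.765 to 6.771, correlate at 0.9987 to 0.9999 with log2 of each array's processed signal, and are not centred per gene. It holds 16 of the 20 member probes.

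Accessions were matched to symbols in a RefSeq table of GRCm38.p6, which named 26424 probes (67%) with 1 symbol; 13005 had none. From the processed signal, log2 values minus the 75th percentile of non-control spots were computed, outlier-marked spots were set aside and spots of a probe averaged. Per array, 26491 to 29609 non-control spots were well above background, and the number of arrays limits the precision. Each probe was fitted in limma 3.58.1 (lmFit, eBayes, R 4.3.3), two-sided, with Benjamini-Hochberg adjustment, and all adjusted p-values come from limma. The fit was tested on simulated data of independent values, without slides or a background limit. That test therefore does not cover either of these.

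Alternatives were normexp on spot or array background, quantile and median scaling, the deposited table, no filter on dim probes, outlier spots kept, the slide or replicate number as a block, and each array left out. Both normexp settings used an offset of 50 units.

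Each slide held the wild-type and the null array of 1 replicate number, and deviations from the group means correlated at 0.136, 0.375 and 0.247 within slides. The numbers thus pair the arrays. Nothing in the labels says that pools of 1 number share a litter. In the labels nothing but the replicate number tells the pools of a group apart, so p-values measure the spread between these pools.

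Named are all member probes; of each partner list up to 4 called genes with the smallest adjusted p, or 2 where none was called; Elavl3, Nefl, Gata1, Klf1 and Tbx5 among the markers, 1 further marker not being reported here; and the 3 genes most like each ARID3 gene. Actl6b, Il6, Myf5, Pitx1, Kdm5d, Eif2s3y, Ddx3y, Xist, Fgf10, Dpf3, Ss18l1, Bcl11b, Smarca2, Smarcc2 and Smarcd3 were added after their values were seen. Members and lists were chosen with earlier results of these data known, and the lists are described by counts, with no set test.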

Additional observations from a re-analysis of the deposited data

How the results depend on the processing

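The fit was repeated under 15 alternatives, of which the slide block and the replicate block are the same fit. In each of them 0 member probes were called higher, among the probes that the setting tested. Arid3c and Arid5b were tested only without a filter on dim probes and in the deposited table. Arid2 A_55_P1975031 was tested only without that filter. The remaining settings could not call these probes. The deposited table holds no probe of Arid3a, so that setting could not call it. The 3 Arid3b probes kept a negative change in all 45 values, and 41 of the 45 passed. Dropping the filter, adding a block and keeping outlier spots left these changes as in the main fit, so their sign could not turn there. Of the 212 paralogue values with an adjusted p, 0 passed, and the smallest was 0.0516. Over the settings that leave out 1 array the Arid3b changes ran from -1.82 to -1.52 (A_51_P161554), from -3.40 to -3.06 (A_55_P2123993) and from -2.02 to -1.73 (A_55_P2123987). With the slide, which here equals the replicate number, as a replicate block, 3 member probes were called lower and 0 higher, 5647 probes were called in all and 10 partner genes. The block ended no member's call.

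With normexp on each spot's background 0 member probes were called lower, 2 probes were called in all and 0 partner genes; the cause was not tested. The Arid3b changes were then -1.38, -1.69 and -1.23 (adjusted p = 0.339, 0.408 and 0.51). Without a filter on dim probes 2771 probes and 1 partner gene were called, with more probes tested. From the deposited values, which cover 38 of the 56 partner genes, 8 were called. Without 1 array the number of called probes ran from 3583 to 4734, beside 6423, and of called partner genes from 1 to 10, beside 14.

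Signs of paralogue changes that no setting called turned as follows. With normexp on spot background the dim probes of Arid3c, Arid5b and Arid2 (A_55_P1975031) went from 0.78, 0.61 and 0.33 to -0.97, -1.04 and -1.13. In that setting Arid1b A_55_P2103657 was at -0.56, Arid3a A_55_P1952166 at 0.19 and Arid4b at -0.32. With normexp on each array's median background Arid5a was at 0.01 (0.0061). After quantile normalization Arid1b A_55_P2103657 was at -0.0075, Arid2 A_55_P2001073 at -0.0028 and Arid3a A_55_P1952166 at 0.0090, and in the deposited table that Arid1b probe was at -0.0088. Leaving out 1 array gave ranges of -0.12 to 0.45 for Arid1a A_55_P2167769, -0.10 to 0.12 for Arid1b A_55_P2103657, -0.057 to 0.043 for Arid2 A_55_P2001073, -0.18 to 0.058 for Arid3a A_55_P1952166, -0.28 to 0.82 for Arid4b and -0.22 to 0.16 for Arid5a. Signal over background limits Arid3c, Arid5b and the dim probes of Arid1b, Arid2, Arid3b and Arid4a.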
